A study of Mus musculus with 4 samples.

Results

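The interferon regulatory factors (IRFs) Irf1, Irf2, Irf3, Irf4, Irf5, Irf7, Irf8 and Irf9 and the basic leucine zipper factors Batf and Batf3 were followed by their gene symbols, 10 genes among the 23700 rows of each table. RNA came from splenic helper T cells of C57BL/6 mice aged 43 weeks. There were 2 libraries labelled KO (KO 1 and KO 2, genotype RIPK1-KO) and 2 labelled wild type (WT 1 and WT 2). The series names the knockout as specific to T cells. The sources used here do not give the driver of the deletion, the deleted part of Ripk1 or the way the cells were purified. All 4 titles also end in Ctrl, which the labels do not explain. Separate mice are not stated for replicates 1 and 2, so the p-values below weigh only library-to-library spread, which may be technical.

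IRFs are transcription factors that recognise GAAA repeats in the control regions of interferon and immune genes. IRF3 and IRF7 switch on type I interferon genes after phosphorylation by the kinases TBK1 and IKK epsilon, and IRF9 joins STAT proteins to carry the interferon signal to the nucleus. IRF1 and IRF2 compete for the same element, IRF1 as an activator and IRF2 mainly as an antagonist. In T cells the T cell receptor induces IRF4, which binds DNA beside dimers of BATF with a JUN protein, and the pair is needed for several helper and effector regulatory T cell programmes.

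The values are FPKM (fragments scaled to transcript length and to the mapped total), and differences were tested with limma on log2(FPKM + 1) over the 11074 rows with at least 1 FPKM in at least 2 libraries. Each change is KO minus WT, and p-values carry a Benjamini-Hochberg adjustment with a threshold of 0.05. The fold changes of low genes are understated on that scale. The steps of the low values put the depth at about 17600000 and 19100000 fragments in KO 1 and KO 2, and at about 21300000 and 22100000 in WT 1 and WT 2. Ripk1 itself stood at 10.4 and 9.54 FPKM in KO 1 and KO 2, against 5.61 and 5.60 FPKM in WT 1 and WT 2. The targeted gene was thus not lower under the KO label, with a log2 change of 0.73 (limma adjusted p = 0.0262) as deposited and of 0.31 under trimmed-mean scaling (limma adjusted p = 0.222). An FPKM summed over all exons says nothing of a deletion of some of them, and directions are given for libraries by their label. The median tested row was 0.38 higher (log2) in the libraries labelled KO as deposited and -0.01 after trimmed-mean scaling, so each change is also given relative to the median row. Of the tested rows 25.6% were called higher and 1% lower as deposited, and 4.68% and 5.2% after trimmed-mean scaling.

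The cells carried the RNA of T cells: all 12 T cell markers were tested, and Cd4 was at 211 and 185 FPKM in KO 1 and KO 2 and at 86.3 and 87.3 FPKM in WT 1 and WT 2. Of those 12 markers, 4 were called higher (25.6% of all rows), Cd4 among them. After trimmed-mean scaling 2 were called higher and 1 lower (4.68% and 5.2% of all rows). The lower one was Cd3d, at 175 and 169 against 185 and 238 FPKM, which did not pass as deposited (limma adjusted p = 0.395). Lat and Cd3g, the highest by mean level, passed in neither setting. Markers of other cells were present at different levels. The 12 B cell markers summed to 29.0 and 27.1 FPKM in the libraries labelled KO and 26.2 and 22.3 FPKM in the wild type, led by Fcer2a at 12.4 and 12.4 against 19.2 and 14.8 FPKM. Among them Pax5, Ebf1, Blk, Blnk and Cr2 were under 1 FPKM in all 4. The 14 monocyte and macrophage markers summed to 11.5 and 14.9 against 5.10 and 8.30 FPKM, with Csf1r under 1 FPKM in all 4 libraries. The 12 dendritic cell markers summed to 124 and 87.3 against 81.0 and 105 FPKM, led by Bst2 (58.2 and 27.1 against 24.4 and 41.3), Cst3 (37.6 and 31.2 against 18.8 and 33.4) and Xcr1 (13.1 and 13.8 against 19.6 and 16.4). Of the others, Zbtb46, Flt3, Itgax, Cd209a and Clec9a were under 1 FPKM in all 4, and Clec10a was listed at 0. The 7 plasma cell markers summed to 26.4 and 32.1 against 14.5 and 22.3 FPKM. They were led by Xbp1 (18.2 and 20.3 against 9.24 and 14.2) and Igj (6.65 and 9.49 against 3.96 and 5.36). Both lay higher in the libraries labelled KO but did not pass (limma adjusted p = 0.0714 and 0.0693). Derl3 and Tnfrsf17 were under 1 FPKM throughout. The 9 erythroid markers matched summed to 397 and 322 against 7.11 and 99.9 FPKM, with a row of Hba-a2, a globin gene, at up to 140 FPKM in KO 1. All 6 erythroid rows tested were called higher (25.6% of all rows), 3 of them having entered the test only through the KO libraries. The part of such RNA in the results below was not tested. In bulk RNA, fewer cells of a type and less RNA per cell cannot be told apart.

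Promoter sequence is shown for 3 members that recur below, Irf1, Irf2 and Irf8, because their upstream bases hold the letters TTCNNNGAA, the core of the gamma-activated site (GAS) that STAT dimers bind. The windows are RefSeq's (build GRCm38.p6, plus strand, chr11:53769764-53770013 for Irf1, chr8:46739495-46739744 for Irf2 and chr8:120736108-120736357 for Irf8), each the 250 bases before a start site. Capitals mark GAS letters and, at the 5′ end of Irf2, a match to GAAA and GAAA set 2 bases apart, a form of the interferon-stimulated response element (ISRE).
Irf1: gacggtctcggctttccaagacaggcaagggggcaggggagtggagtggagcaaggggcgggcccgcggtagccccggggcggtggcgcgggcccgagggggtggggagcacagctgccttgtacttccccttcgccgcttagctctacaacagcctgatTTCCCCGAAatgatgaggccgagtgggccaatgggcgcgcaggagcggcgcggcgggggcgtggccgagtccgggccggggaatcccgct
Irf2: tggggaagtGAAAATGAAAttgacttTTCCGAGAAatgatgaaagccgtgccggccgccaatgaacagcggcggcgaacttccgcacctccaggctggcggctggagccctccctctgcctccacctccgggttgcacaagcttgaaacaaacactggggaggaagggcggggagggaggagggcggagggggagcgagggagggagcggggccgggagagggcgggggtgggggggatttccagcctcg
Irf8: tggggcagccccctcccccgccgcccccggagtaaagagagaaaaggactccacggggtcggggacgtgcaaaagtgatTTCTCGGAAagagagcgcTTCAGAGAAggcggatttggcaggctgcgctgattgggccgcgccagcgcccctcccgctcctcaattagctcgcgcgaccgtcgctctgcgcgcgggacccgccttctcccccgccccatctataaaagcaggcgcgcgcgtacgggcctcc

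The same letters were searched on both strands of all 13 RefSeq windows of the 10 members, from 250 bases before to 50 after the start. GAS letters stood in 4 of the 13 windows, against 8.3% of 32851 mouse windows of that length. The 4 belong to Irf1, Irf2, Irf8, which has a pair of matches, and Batf3. ISRE letters stood in 1 of the 13 windows, that of Irf2, against 3.44% of all windows. The composite elements of BATF with an IRF were searched as TTTC and TGANTNA set 4 bases apart, and as GAAA joined directly to TGANTCA. These, the AP-1 site TGANTCA (which the second composite contains) and an NF-kB form, GGGA and TTTCC set 1 base apart, were in no member's window, against 0.292%, 0.125%, 7.81% and 0.411% of all windows. A match is a description of letters, and no match says only that these letters are not in these windows. Other forms of these sites were not searched and may be present. For NF-kB, the wider form GGGRNNYYCC (R is A or G, Y is C or T) is present near the 3′ end of 2 printed windows. It reads GGGGAATCCC in Irf1 and GGGGATTTCC in Irf2, left in lower case above. Its share of all windows was not counted.

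Among the 10 genes, Irf2, Irf5, Irf8 and Batf were called higher in the libraries labelled KO, none was called lower, 5 did not pass, and Batf3 was too low to be tested. That is 4 of 9 tested, against 25.6% of all rows. Irf5 entered the test only through its values in the KO libraries, and without it the count was 3 of 8. The tested members had a median change of 1.30 (log2), against 0.38 for all rows. After trimmed-mean scaling 1 of them, Irf5, was still called, against 4.68% of all rows, and the median was 0.85 against -0.01. Under quantile normalization none was called in limma (1.62% of all rows were called higher and 0.695% lower), with 4 higher at an unadjusted p under 0.05. Without WT 1 none passed in limma, which then called 9 of all rows higher, while 4 members were higher at an unadjusted p under 0.05. In that setting limma also called 0 genes of each pathway list described below, except 1 of the IRF3 and IRF7 activators. The values of 7 of the 9 lay above both wild type values in both libraries labelled KO, against 58.5% of all rows. Irf5 is among the 7, and its order was fixed by its entry through the KO libraries alone. The same holds for 550 of the 11074 rows.

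**Figure D1:**
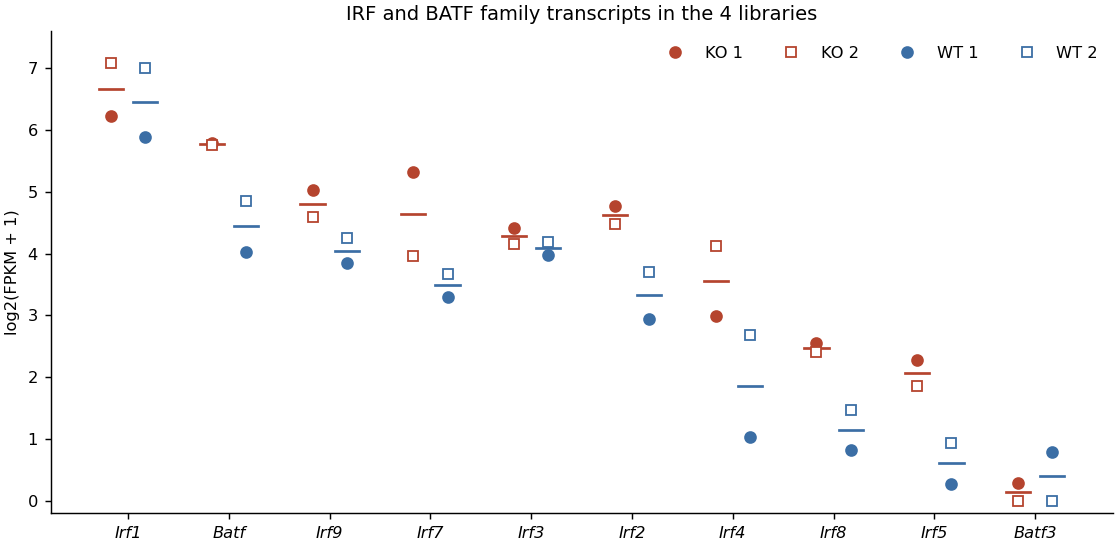
FPKM of the 10 members on a log2(FPKM + 1) axis in each of the 4 libraries; filled circles are replicate 1, open squares replicate 2, red KO, blue WT, and bars the mean of the log values. Batf, Irf2, Irf8 and Irf5 lie higher in both libraries labelled KO, while the values of Irf1 and Irf3 overlap between the groups.

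Per length, Irf1 was the most abundant member in every library and Batf the next. In the libraries labelled KO, Irf9, Irf7, Irf2 and Irf3 followed at mean levels of 27.4, 26.9, 23.8 and 18.6 FPKM, with overlapping values except that Irf2 and Irf9 lay above Irf3 in both. In the wild type, Irf3 and Irf9 followed at 16.0 and 15.7 FPKM with overlapping values, and then Irf7 and Irf2 at 10.3 and 9.37 FPKM, overlapping as well. Irf4, Irf8, Irf5 and Batf3 had the lowest means in both groups. Irf1 made up 28.2% and 47.1% of the summed FPKM of the 10 genes in KO 1 and KO 2, against 48.7% and 57.3% in WT 1 and WT 2. Batf made up 20.8% and 18.5% against 12.7% and 12.5%, so that its share, which does not depend on library scaling, was higher in both libraries labelled KO.

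Batf, the JUN partner needed for Th17 and follicular helper cells, was at 54.5 and 53.1 FPKM in KO 1 and KO 2, against 15.3 and 27.9 FPKM in WT 1 and WT 2. The KO libraries nearly coincided, the wild type ones differed 1.83-fold, and the groups did not overlap. The means were 53.8 ± 0.992 and 21.6 ± 8.94 FPKM (SD, n = 2 and 2), a ratio of 2.49. Its log2 change was 1.34 ± 0.30 (SE), or 0.96 above the median row (limma adjusted p = 0.0232). Under trimmed-mean scaling the change of Batf was 0.87, short of the threshold (limma adjusted p = 0.0619). Its level ranked above 92.7% of tested rows in both KO libraries, against 79.7% in WT 1 and 87.1% in WT 2. Batf3, the paralogue needed by cross-presenting dendritic cells, was at 0.223 and 0 FPKM in KO 1 and KO 2 and at 0.731 and 0 FPKM in WT 1 and WT 2. With about 3.57 and 14.2 fragments behind the values above 0, no difference of Batf3 was detectable at this depth.

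Irf4, the T cell receptor-induced partner of BATF, was at 6.94 and 16.4 FPKM in KO 1 and KO 2, against 1.04 and 5.39 FPKM in WT 1 and WT 2. The groups did not overlap, but KO 1 stood only a little above WT 2, and the libraries of each group differed by 2.36-fold (KO) and 5.18-fold (WT). The log2 change of 1.70 ± 0.57 (SE), did not pass (limma adjusted p = 0.0659, 95% interval 0.35 to 3.06), nor did it after trimmed-mean scaling (1.33, limma adjusted p = 0.162). The change was 2.27 without KO 1, 1.14 without KO 2, 0.88 without WT 1 and 2.53 without WT 2, so that its size varied with each library. It passed in these fits except without WT 1, but each leaves 1 library in a group, which is then assumed to vary like the other group. Irf8, its close relative known from B cells, dendritic cells and macrophages, was at 4.84 and 4.30 FPKM in KO 1 and KO 2, against 0.763 and 1.77 FPKM in WT 1 and WT 2. The KO values were close to each other and above both wild type values. Irf8 rose 3.61-fold in mean FPKM, with a log2 change of 1.33 ± 0.25 (SE), 0.95 above the median row (limma adjusted p = 0.0172). After trimmed-mean scaling the change was 1.01 and missed the threshold (limma adjusted p = 0.051). The upstream bases of Irf8 above hold a pair of GAS matches, whose part in its level was not tested.

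Irf5, which acts behind Toll-like receptors in macrophages and B cells, was at 3.85 and 2.62 FPKM in KO 1 and KO 2, against 0.211 and 0.908 FPKM in WT 1 and WT 2. The wild type values rested on about 9.18 and 40.9 fragments. Its log2 change was 1.46 ± 0.28 (SE), 1.08 above the median row (limma adjusted p = 0.0176), and it was 1.21 after trimmed-mean scaling (limma adjusted p = 0.0497). Irf5 and Irf8 are also transcribed in B cells and myeloid cells, 2 kinds of cell whose marker sums are given above. Of the 4 B cell markers tested, 2 were called higher (25.6% of all rows), Cd22 (log2 change 1.03, limma adjusted p = 0.0144) and Cd79b, which had entered the test only through the KO libraries. The other two did not pass, Fcer2a with a change of -0.41 and Cd79a with 0.21 (limma adjusted p = 0.166 and 0.509). Of the 3 monocyte and macrophage markers tested, 1, Lyz2, was called higher (25.6% of all rows). It was at 2.99 and 4.38 against 0.164 and 1.53 FPKM (limma adjusted p = 0.0339). Tyrobp, with a change of -0.11, and Cd68, with 0.53, did not pass (limma adjusted p = 0.762 and 0.0992). The part of such cells in the Irf5 and Irf8 values was not tested.

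**Figure D2:**
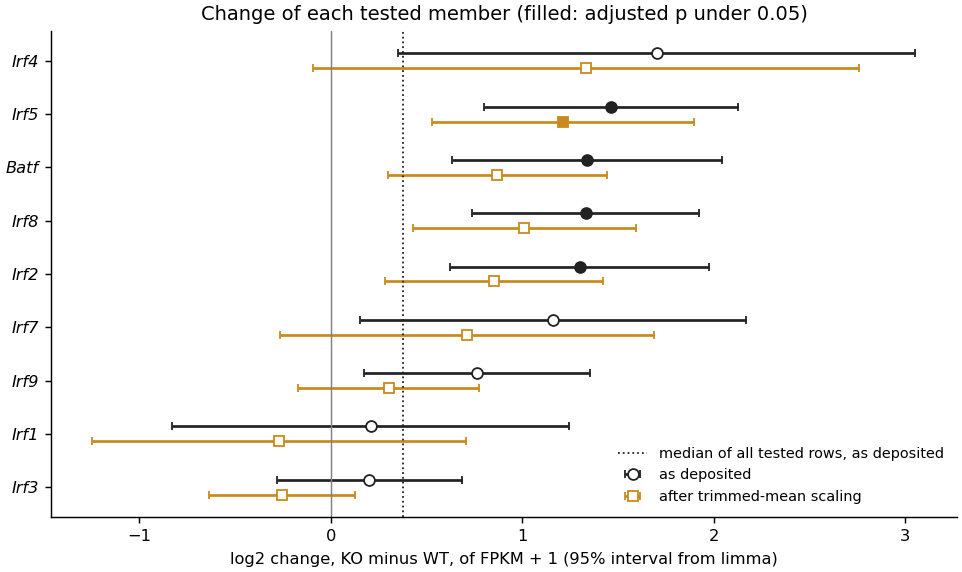
Log2 change of FPKM + 1, KO minus WT, with the 95% interval from limma for the 9 tested members, as deposited (black) and after trimmed-mean scaling (orange); filled symbols passed an adjusted p of 0.05, and the dotted line is the median of all tested rows as deposited (0.38). Irf2, Irf5, Irf8 and Batf passed as deposited and Irf5 after trimmed-mean scaling, while Irf1 and Irf3 lay below the dotted line.

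Irf2, the antagonist of IRF1, was at 26.4 and 21.2 FPKM in KO 1 and KO 2, against 6.72 and 12.02 FPKM in WT 1 and WT 2. Every KO value was above every wild type value. The ratio of means was 2.54 and the log2 change 1.30 ± 0.28 (SE), 0.92 above the median row (limma adjusted p = 0.0225). After trimmed-mean scaling the change was 0.85 and did not pass (limma adjusted p = 0.0634). Its level ranked above 83.1% and 79.5% of tested rows in KO 1 and KO 2, against 58.4% and 70.5% in WT 1 and WT 2.

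Irf1, the interferon- and activation-induced activator, was at 73.8 and 135 FPKM in KO 1 and KO 2, against 58.5 and 127 FPKM in WT 1 and WT 2. It was high in the replicate 2 library of either group and lower in replicate 1, and the groups overlapped. The log2 change of 0.21 ± 0.44 (SE) did not pass (limma adjusted p = 0.735), with a 95% interval of -0.83 to 1.25, and it was -0.27 after trimmed-mean scaling. The 10 listed JUN, FOS and small MAF genes, most of them immediate early genes, had the same order. These genes summed to 885 and 1446 FPKM in KO 1 and KO 2 and 677 and 1237 FPKM in WT 1 and WT 2. All 9 of them that were tested were higher in replicate 2 than in replicate 1 in both groups, a comparison chosen after the values were seen, against 30.1% of all rows. Of these 9, 1 was called higher between the genotypes (25.6% of all rows), Mafg, a small MAF gene (limma adjusted p = 0.0173). The median of the 9 was -0.17 relative to the median row. It was 0.69 without KO 1 and 0.62 without WT 2, but -0.65 without KO 2 and -0.64 without WT 1. Fosb and Fos did not pass (limma adjusted p = 0.0736 and 0.0752).

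Among the genes that IRF1 is known to activate, 6 of 20 were called higher (25.6% of all rows), with a median 0.18 above the median row. The 3 with the smallest p were Il12rb1, a chain of the IL-12 receptor, Nlrc5, the activator of MHC class I genes, and Casp1, the inflammasome protease. Il12rb1 was at 9.54 and 6.78 FPKM in KO 1 and KO 2, against 1.78 and 0.879 FPKM in WT 1 and WT 2 (limma adjusted p = 0.0127). Nlrc5 rose 2.47-fold and Casp1 3.57-fold in mean FPKM (limma adjusted p = 0.0143 and 0.019). After trimmed-mean scaling 2 of the 20, Il12rb1 and Nlrc5, were called higher (limma adjusted p = 0.0337 and 0.0425), against 4.68% of all rows.

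Irf7, the interferon-induced inducer of type I interferon, was at 39.1 and 14.6 FPKM in KO 1 and KO 2, against 8.83 and 11.7 FPKM in WT 1 and WT 2. The groups did not overlap, yet KO 2 lay nearer to the wild type than to KO 1. The log2 change of 1.16 ± 0.42 (SE) did not pass (limma adjusted p = 0.0826). It was 0.48 without KO 1 and 1.84 without KO 2, so its size rested on KO 1. The fit without KO 2 passed and that without KO 1 did not, each with a lone KO library assumed to vary like the wild type pair. Irf3, its constitutive relative, was at 20.4 and 16.8 FPKM in KO 1 and KO 2, against 14.8 and 17.3 FPKM in WT 1 and WT 2. Those values overlapped, and the change in log2 was 0.20 ± 0.20 (SE), which did not pass (limma adjusted p = 0.471); it was -0.25 after trimmed-mean scaling. Of 13 tested genes that sense nucleic acid or activate IRF3 and IRF7, 7 were called higher as deposited (25.6% of all rows). After trimmed-mean scaling limma called 0 of them (4.68% of all rows), with 2 higher and 1 lower at an unadjusted p under 0.05. Traf3, a signalling adaptor, rose 2.65-fold, Ifih1, the RNA sensor MDA5, 3.54-fold and the kinase gene Tbk1 1.82-fold in mean FPKM (limma adjusted p = 0.0171, 0.0263 and 0.0265).

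Irf9, the DNA-binding subunit that joins STAT proteins after interferon, was at 31.8 and 23.0 FPKM in KO 1 and KO 2, against 13.3 and 18.1 FPKM in WT 1 and WT 2. The groups did not overlap, but the log2 change of 0.76 ± 0.25 (SE), 0.38 above the median row, did not pass (limma adjusted p = 0.0615). Its partner Stat2 was called higher, at 11.0 and 6.18 against 3.31 and 3.93 FPKM (limma adjusted p = 0.0351), but not after trimmed-mean scaling (limma adjusted p = 0.14). Of the 7 JAK and STAT genes listed with them, 5 were called higher, 3 after trimmed-mean scaling and 1 under quantile normalization (25.6%, 4.68% and 1.62% of all rows). The 3 with the smallest p were the kinase genes Jak2 (2.86-fold) and Tyk2 (2.49-fold), both at limma adjusted p = 0.0136, and Stat4 (2.16-fold, limma adjusted p = 0.0159).

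Genes induced by interferon differed between the libraries labelled KO in the way Irf7 did. The 30 listed genes summed to 614 and 294 FPKM in KO 1 and KO 2, against 230 and 274 FPKM in WT 1 and WT 2. All 28 that were tested had their highest value in KO 1, a comparison chosen after the values were seen, against 44.8% of all rows. Of the 28, 9 were called higher (25.6% of all rows). Among the 28, 4 had entered the test only through the KO libraries, of which 2 were called, and 7 of the other 24 were called. After trimmed-mean scaling limma called 0 of the 28 (4.68% of all rows higher), with 7 higher at an unadjusted p under 0.05. The median of the list was 0.57 above the median row with all 4 libraries. It was 0.09 without KO 1 and 0.96 without KO 2, each over 24 tested rows of the list. Over 28 rows it was 0.51 without WT 1 and 0.61 without WT 2. Lgals3bp, a secreted glycoprotein gene, was at 42.4 and 16.8 against 6.02 and 6.15 FPKM (limma adjusted p = 0.0187). Oas1a, an oligoadenylate synthetase, was at 17.9 and 7.33 against 2.45 and 2.82 FPKM (limma adjusted p = 0.0197), and Parp14 rose 2.71-fold in mean FPKM (limma adjusted p = 0.0215).

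**Figure D3:**
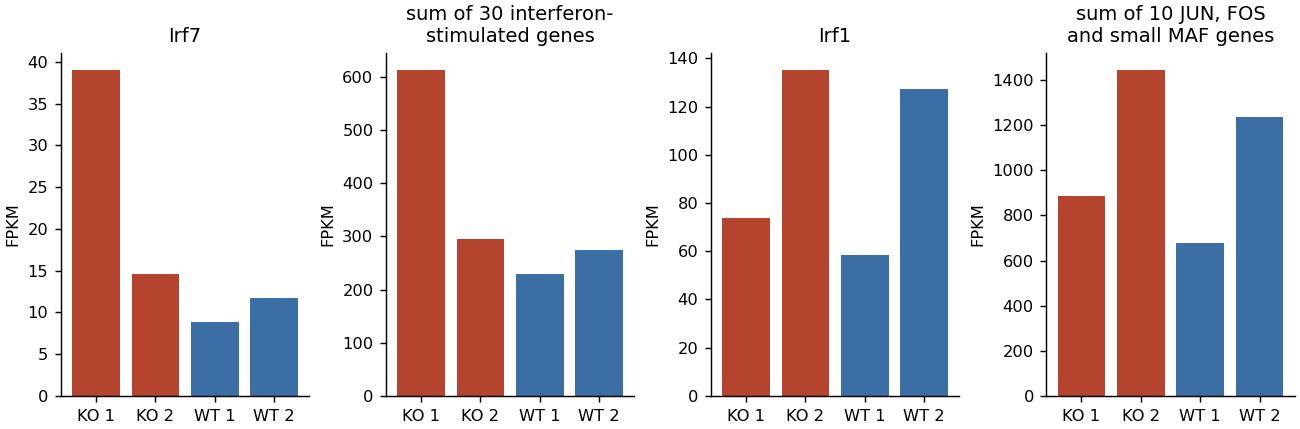
FPKM in each library of Irf7, of the sum of 30 interferon-stimulated genes, of Irf1 and of the sum of 10 JUN, FOS and small MAF genes; red bars are KO, blue bars WT, each axis starts at 0. Irf7 and the interferon-stimulated genes are highest in KO 1, at 39.1 and 614 FPKM, while Irf1 and the JUN, FOS and MAF genes are higher in the replicate 2 library of both groups.

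Ratios of FPKM between members within a library do not depend on how the library was scaled, while the tested ratios of FPKM + 1 do so for low members. Of 6 pairs compared, 4 were apart between the groups. For 1 of them, Batf over Batf3, the ratio follows the level and scaling of Batf, since Batf3 was at 0 in KO 2 and WT 2. All 4 had an exact two-sided permutation p of 0.33, the smallest that 2 against 2 libraries can give (0.5 after Benjamini-Hochberg adjustment over the 6). Irf1 was 2.80 and 6.37 times as high as Irf2 in KO 1 and KO 2, against 8.71 and 10.6 times in WT 1 and WT 2. The ratio of activator to antagonist RNA was lower in both libraries labelled KO, with a mean difference of -1.09 on the log2(FPKM + 1) scale. Irf7 was 1.92 and 0.868 times as high as Irf3, against 0.598 and 0.679 times, and Irf9 was 1.56 and 1.37 times as high as Irf3, against 0.902 and 1.05 times. Irf4 was 1.43 and 3.81 times as high as Irf8 in KO 1 and KO 2, against 1.36 and 3.04 times in WT 1 and WT 2, and Batf was 7.86 and 3.24 times as high as Irf4, against 14.7 and 5.18 times. Those last pairs overlapped between the groups (exact permutation p = 0.667 for either).

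**Figure D4:**
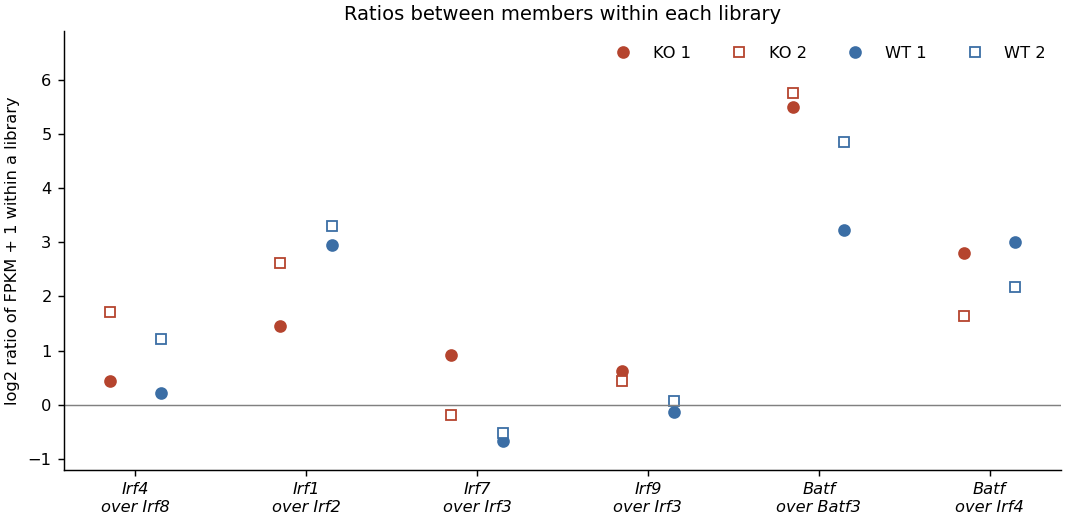
Log2 ratio of FPKM + 1 between 2 members within each library, for the 6 pairs compared; filled circles are replicate 1, open squares replicate 2, red KO, blue WT. Irf1 over Irf2 is lower in both KO libraries, at mean log2 ratios of 2.03 (KO) and 3.12 (WT), while Irf4 over Irf8 and Batf over Irf4 overlap.

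Genes known as targets of BATF and IRF4 were mostly higher in the libraries labelled KO. Of 23 tested, 19 were called higher and 0 lower (25.6% and 1% of all rows), with a median 1.21 above the median row. Of these 23, 5 had entered the test only through the KO libraries, and 14 of the other 18 were called. After trimmed-mean scaling 11 were called (4.68% of all rows), under quantile normalization 4 (1.62% of all rows), and without WT 1 limma called 0, with 20 higher at an unadjusted p under 0.05. Foxp3, the regulatory T cell factor, was at 15.0 and 12.02 FPKM in KO 1 and KO 2, against 2.26 and 2.56 FPKM in WT 1 and WT 2 (limma adjusted p = 0.0078). The chemokine receptor genes Ccr8 and Cxcr3 rose 11.5-fold and 3.74-fold in mean FPKM (both limma adjusted p = 0.0127). The 4 that did not pass were Tbx21, Il1rl1, Il2ra and Myc. The list was chosen with earlier results of these libraries known, and several of its genes also mark regulatory and follicular helper T cells.

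**Figure D5:**
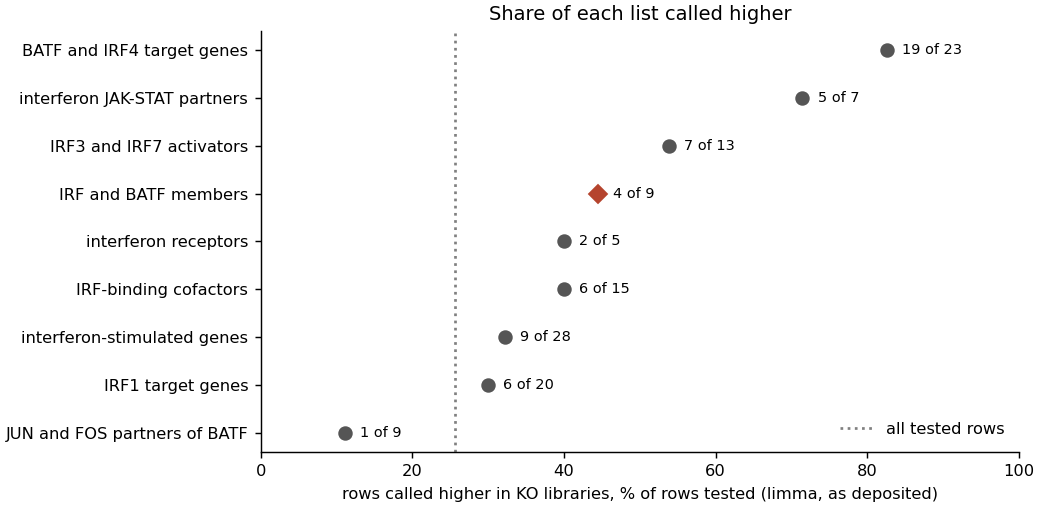
Share of tested rows called higher in the libraries labelled KO (limma, as deposited) for the IRF and BATF members (red diamond) and 8 related lists (grey), with the share among all tested rows as a dotted line at 25.6%. The targets of BATF and IRF4 stand highest, with 19 of 23. The JUN, FOS and small MAF genes, labelled JUN and FOS partners of BATF, stand lowest, with 1 of 9.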

How the data were processed

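RNA of 4 libraries of splenic helper T cells, 2 labelled KO and 2 labelled wild type, was sequenced. The NEBNext Ultra kit was used on 200 ng of RNA, per the labels' protocols. Per the submitters' processing notes, Bowtie 0.12.2 and mm8 were used. Not given in the sources used here are the quantifying program, its annotation and its strand handling. The authors deposited 1 FPKM value per row and library, per the file headers; 250 of the 23234 symbols stand on more than 1 row. FPKM scales by mapped total and length, so a few abundant genes can shift all others.

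Depth was estimated from low values of genes with a single GENCODE M21 transcript, at an assumed fragment length of 200 nt. Between 53.5% and 61.0% of them lay within 5% of a whole number of fragments, too few for a test on counts. The main test was limma 3.58.1 with an intensity trend in R 4.3.3, two-sided, with a pseudocount of 1, and was tested on simulated data. Trimmed-mean scaling removed 30% of log ratios and 5% of mean levels at each side. Lists were described by counts, with symbols matched through RefSeq synonyms, and not tested. All 10 members were named, together with up to 3 genes of a pathway list by smallest unadjusted p and marker genes by level; members of a list named beyond this rule (the other members with their values, such as Stat2, Cd4 and Pax5) were chosen after their values were seen. Some genes of the lists are not reported here. The members and lists were chosen with earlier results of these data known. The alternatives were each library left out, a replicate block, other pseudocounts (0.1 and 5), filters, scalings and no trend. Scripts used Python 3.11.15, pandas 2.3.3 and matplotlib 3.10.9.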

Additional observations from a re-analysis of the deposited data

How the results depend on the processing

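Of 104 changes of single members under the 12 alternatives, 73 kept their direction and side of the threshold, 15 lost the call, 10 gained one and 6 turned sign. The members called higher numbered 4 as deposited, 0 with no filter and after quantile normalization, 1 under trimmed-mean scaling, and 0 to 5 on leaving out 1 library (0 without WT 1, limma). All rows called higher numbered 2832 as deposited, 3 with no filter, 518 after trimmed-mean scaling, 179 after quantile normalization and 9 to 2189 on leaving out 1 library (9 without WT 1, 1611 without KO 1). All rows called lower numbered 111 as deposited, 0 with no filter, 576 after trimmed-mean scaling, and 0 to 123 on leaving out 1 library (0 without WT 1, 70 without KO 1). With no filter limma found 4604 rows higher and 541 lower at an unadjusted p under 0.05. Irf1 turned to -0.27 under trimmed-mean scaling, was at -0.013 under quantile normalization, and ran from -0.35 to 0.76 on leaving out 1 library (-0.22 without KO 2, -0.35 without WT 1). Irf3 turned to -0.25 and -0.20 after those scalings. Irf4 passed with a filter of 1 FPKM in all 4 libraries (limma adjusted p = 0.0146). In the fits that leave out 1 library, the lone library of a group is assumed to vary like the other group, so a call gained there says little. Over the 7 other alternatives without a block the limma adjusted p ran from 0.00445 to 0.108 (Irf2), 0.0146 to 0.241 (Irf4) and 0.00491 to 0.107 (Batf). The filter of 1 FPKM in all 4 libraries removed Irf5 and Irf8. Over the 6 left for them, the limma adjusted p ran from 0.0146 to 0.0976 (Irf5) and 0.0129 to 0.0974 (Irf8). The cause of these changes was not tested.

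With the replicate number as a block, 7 members were called higher (Irf4, Irf7 and Irf9 besides the 4), and 3909 rows were higher and 230 lower in limma. The labels do not say that same-numbered libraries belong together; their deviations correlated at 0.108 across 11074 rows, which with 2 pairs neither shows nor refutes a pairing. The lowest members, Batf3 and, in the wild type, Irf5, are limited by depth.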

Other observations

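Irf2 and Irf3 changed places between the groups, a comparison chosen after the values were seen. Irf2 was above Irf3 in both libraries labelled KO, at 26.4 against 20.4 FPKM in KO 1 and 21.2 against 16.8 FPKM in KO 2. Irf2 was below Irf3 in both wild type libraries, at 6.72 against 14.8 FPKM in WT 1 and 12.02 against 17.3 FPKM in WT 2. This order within a library does not depend on its scaling.

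Of the relatives of Batf outside the 10 genes, Batf2 was listed at 0 in all 4 libraries. Jdp2, a JUN-dimerising factor, was called higher, at 2.01 and 2.11 FPKM in KO 1 and KO 2, against 0.275 and 1.06 FPKM in WT 1 and WT 2 (limma adjusted p = 0.0451), but not after trimmed-mean scaling (limma adjusted p = 0.136).

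Of 15 tested cofactors and regulators that bind IRF proteins or act with them, 6 were called higher, and 1 under trimmed-mean scaling (25.6% and 4.68% of all rows). Fkbp5, an immunophilin, was at 29.9 and 30.02 FPKM in KO 1 and KO 2, against 5.42 and 8.73 FPKM in WT 1 and WT 2 (limma adjusted p = 0.0115, and 0.0196 after trimmed-mean scaling). Ep300 and Crebbp, the histone acetyltransferases that IRF3 recruits, rose 2.26-fold and 2.56-fold in mean FPKM (limma adjusted p = 0.0151 and 0.0171).

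Of the 5 tested interferon receptor chains, 2 were called higher (25.6% of all rows), and the median of the 5 was -0.06 relative to the median row. They were Ifnar2 and Ifngr1, 1.93-fold and 2.06-fold higher in mean FPKM (limma adjusted p = 0.022 and 0.0394), and neither passed after trimmed-mean scaling (limma adjusted p = 0.108 and 0.127). Ifngr2, the chain that limits interferon gamma responses of T cells, was at 7.70 and 12.5 FPKM in KO 1 and KO 2, against 11.9 and 19.3 FPKM in WT 1 and WT 2, and did not pass (limma adjusted p = 0.186).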
